A study of Homo sapiens with 14 samples.

Results

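The expression of 39 lysosome and autophagy genes was examined in neuroblastoma cells after induction of a MYC inhibitor and after treatment with a degrader compound. The genes were chosen with earlier results of these data known. They were taken by symbol, as regulators of lysosome formation, lysosomal enzymes and membrane proteins, subunits of the proton pump, and proteins of the autophagy pathway. All 39 symbols were found among the 19143 entries of the parental count table, and 37 among the 17810 entries of the OmoMYC table, which together list 19726 gene identifiers. Some symbols carry several identifiers, and genes were therefore followed by identifier.

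CHP-134 cells are an established line from a human neuroblastoma with amplification of MYCN. In the first experiment, CHP-134 lines that carried EGFP or OmoMYC on a lentiviral Tet-On vector were given 1 µg/ml doxycycline for 3 days, with 3 libraries of each line. OmoMYC, derived from the part of MYC through which it dimerizes, blocks MYC proteins from pairing with their partners, and EGFP is a fluorescent protein that serves as the control for induction. Each of these groups is 1 transduced and drug-selected line, both groups received doxycycline, and no uninduced libraries were analysed here, so that the induced protein and the line cannot be told apart. In the second experiment, parental CHP-134 cells, grown without the tetracycline-approved serum used for the engineered lines, were treated for 18 hr with 500 nM dTAG47 or with DMSO, with 4 libraries of each. dTAG47 is a small molecule that brings a tagged protein to the cereblon ubiquitin ligase, and the parental cells served as the control for the compound itself. The libraries were described as biological replicates.

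The lysosome is the acidic compartment in which hydrolases break down proteins, glycans and lipids, and its low pH is kept by the V-ATPase, a proton pump made of a membrane-bound V0 part and a cytosolic V1 part. In autophagy, a double membrane forms around cytoplasm or organelles through the ULK1 kinase, a lipid kinase complex that contains BECN1, and the conjugation of ATG8 proteins such as MAP1LC3B, and the vesicle then fuses with the lysosome. Many of these genes are known targets of TFEB, TFE3 and MITF, which bind an E-box called the CLEAR element, and the E-box CACGTG is also the preferred site of MYC and MAX dimers.

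RefSeq promoters of 300 bases, from 250 before to 50 after the gene start in GRCh38.p14, were found for 30 of the 39 genes. The letters CACGTG occurred in 8 of these 30 promoters (26.7%), against 10.0% of the 10215 promoters of genes tested in the OmoMYC experiment and 7.43% of all 27305 promoters. The longer form TCACGTGA occurred in 5 of 30 (16.7%), against 1.84% and 1.04%. The full form GTCACGTGAC occurred in 2 of 30 (6.67%), against 0.744% and 0.381%. Each shorter form lies within the longer ones, and all of them read the same on both strands. A further motif, TCATGTGA, was searched on both strands and was found in 0 of the 30. The following windows are shown because they hold matches in genes whose changes are described further on. Each lies before the gene start and is read on the strand of the gene, with 1 match in capitals, and those of MCOLN1 and CTSA hold another CACGTG in lower case.
GAA, chr17:80101475-80101540, plus strand: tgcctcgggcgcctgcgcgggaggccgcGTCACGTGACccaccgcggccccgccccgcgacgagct
GAA, chr17:80101520-80101580, plus strand: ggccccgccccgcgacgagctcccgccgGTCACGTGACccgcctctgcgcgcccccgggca
MCOLN1, chr19:7522580-7522623, plus strand: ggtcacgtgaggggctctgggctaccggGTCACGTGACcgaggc
ATP6V0D1, chr16:67481181-67481246, minus strand: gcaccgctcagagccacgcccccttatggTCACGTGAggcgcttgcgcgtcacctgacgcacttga
CTSA, chr20:45891280-45891334, plus strand: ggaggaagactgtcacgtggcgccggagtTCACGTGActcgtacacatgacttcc
CTSD, chr11:1763939-1764004, minus strand: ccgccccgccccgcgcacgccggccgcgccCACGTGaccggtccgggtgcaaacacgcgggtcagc
CTSF, chr11:66568622-66568687, minus strand: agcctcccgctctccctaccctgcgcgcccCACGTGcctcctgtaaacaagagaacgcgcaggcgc
LAMP1, chr13:113297181-113297238, plus strand: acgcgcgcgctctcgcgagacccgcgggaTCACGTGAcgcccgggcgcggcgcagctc

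The promoters of GAA, MCOLN1, CTSA and CTSF held 2 E-boxes each, those of ATP6V0D1, CTSD and NEU1 held 1, and that of LAMP1 held 6. In GAA the first bases of the E-boxes lay 76 and 31 bases before the gene start, and in ATP6V0D1 59 bases before it. A match describes the letters of the window and does not show binding.

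Libraries of the first experiment held 28060817 to 38358128 counts and those of the second 40861430 to 53451641. Values are given as CPM, the count of a gene scaled to the library's total after TMM correction, which measures a share of the library and not the amount of RNA per cell. In bulk libraries, fewer cells of a kind and less RNA per cell cannot be told apart. MYC had 16 to 20 counts in the EGFP libraries and 15040 to 20295 in the OmoMYC libraries, where reads of the transgene can be counted on MYC. MYCN was at 2408.3 to 2899.9 CPM in the first group and at 2182.0 to 2312.0 CPM in the second. Of the markers of adrenergic neuroblastoma, GATA3 was well expressed in the EGFP libraries, with a mean of 303 CPM, whereas TH and DBH, the enzymes of catecholamine synthesis, were at 0.238 and 0.405 CPM. The summed level of 6 myeloid markers, which would mark cells rich in lysosomes, was 2.22 to 2.45 CPM in the EGFP libraries and 1.88 to 2.50 CPM in the OmoMYC libraries, with ITGAM, LYZ and TYROBP at no more than 2 counts in any of these libraries. The summed level of 8 mesenchymal and Schwann cell markers was 86.5 to 96.4 CPM and 87.3 to 96.7 CPM in the same order. Within these lists PTPRC, CD14 and COL1A2 were called lower with OmoMYC and COL1A1 and CD44 higher, and their part in the results was not tested.

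Induction of OmoMYC was compared with induction of EGFP to ask how lysosome and autophagy genes respond when MYC proteins are inhibited. Most genes of the list that changed were higher with OmoMYC, led by the lysosomal protease gene CTSF and followed by the V-ATPase gene ATP6V0D1, the autophagy kinase gene ULK1 and the glycogen-degrading enzyme gene GAA. MITF, ATG5 and WIPI1 were lower. Of the 34 genes that passed the filter on low counts, 14 rose and 3 fell at an FDR below 0.05 by edgeR's quasi-likelihood test with Benjamini-Hochberg adjustment over all 13803 genes tested, which is the meaning of a called gene here. These 17 calls out of 34 were near the background, since 53.0% of all tested genes were called. By direction, 41.2% of the list was called higher against 27.3% of all tested genes, and 8.82% was called lower against 25.7%. The 3 EGFP and 3 OmoMYC libraries did not overlap for 20 of the 34 genes (58.8%), against 62.3% of all tested genes. The median log2 fold change was 0.14 over the list and 0.01 over all tested genes. No test was made of the list as a whole. DESeq2 called 17 of the 34 genes and 46.3% of all genes, and edgeR with the replicate number as a block called 19 and 58.7%. The summed expression of the 34 genes was 1941.2, 1998.1 and 2045.5 CPM in the EGFP libraries and 2484.2, 2460.5 and 2494.9 CPM in the OmoMYC libraries, which did not overlap. Abundant genes weigh most in this sum, and PSAP alone had means of 492 CPM with EGFP and 635 CPM with OmoMYC.

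**Figure D1:**
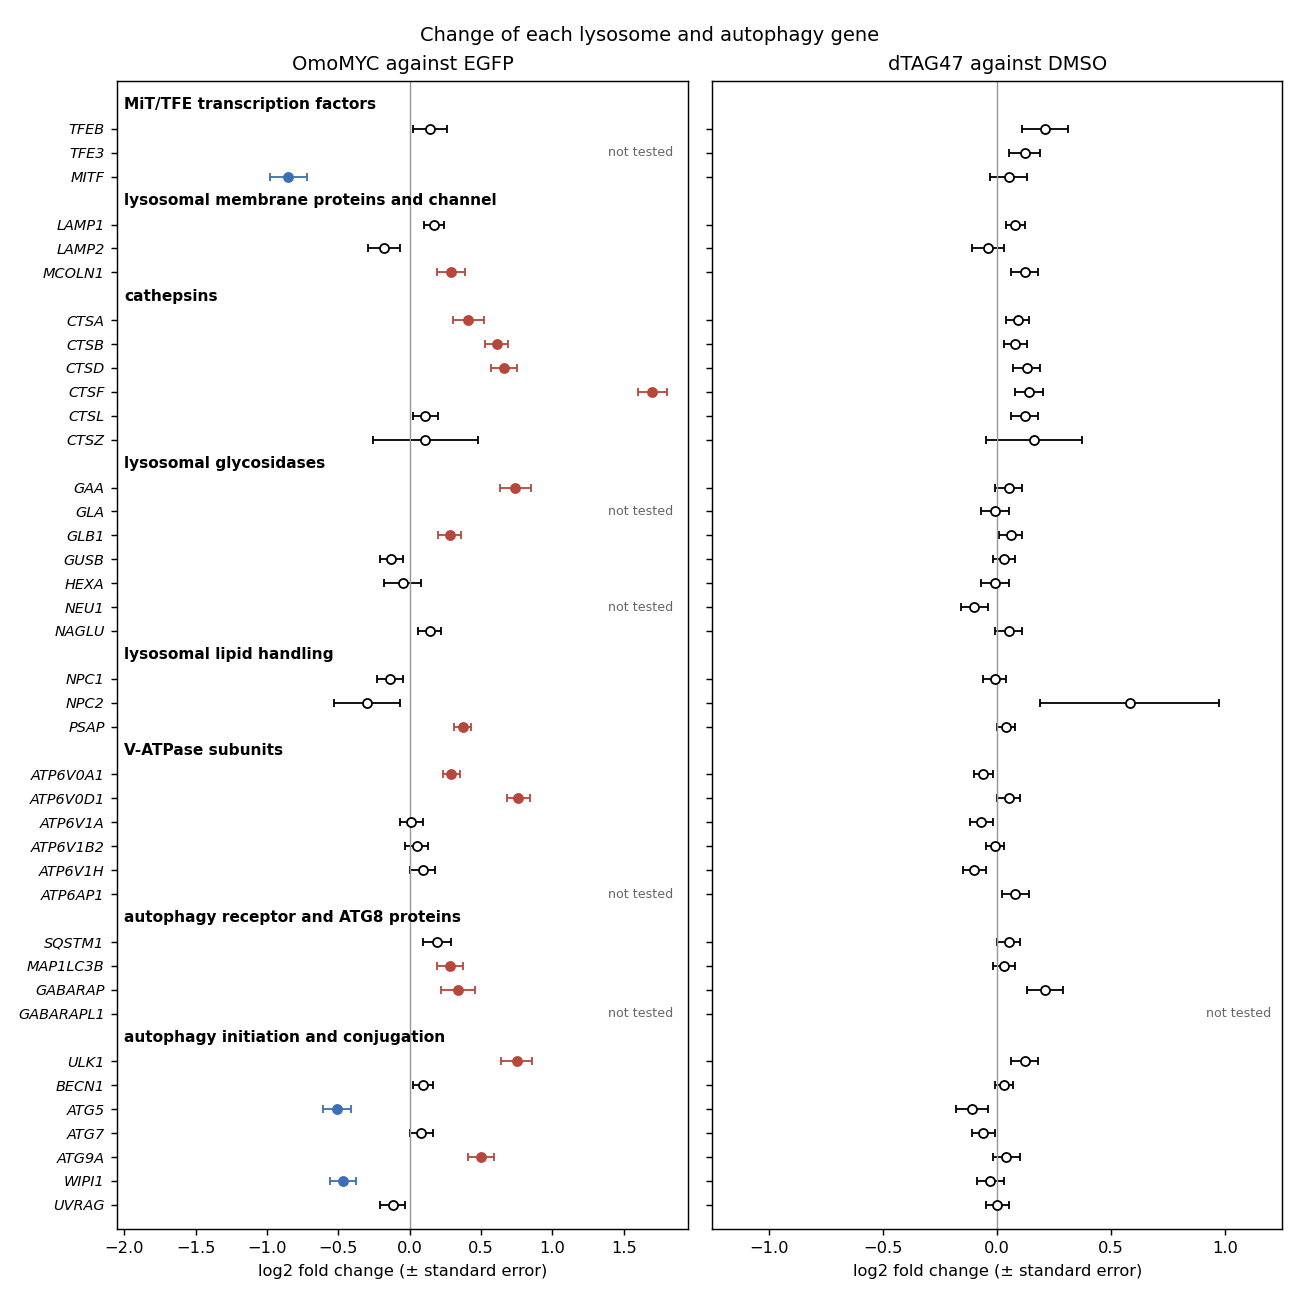
Log2 fold change (x axis) with its standard error for each gene (y axis, ordered by role), for OmoMYC against EGFP (left, 3 libraries a group) and dTAG47 against DMSO (right, 4 libraries a group). Red points were called higher, blue points called lower and open points not called by edgeR at an FDR below 0.05. On the left 14 genes were called higher and 3 lower, and on the right no gene was called.

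Among the transcription factors, MITF was the called gene. MITF was expressed at 10.2, 8.70 and 8.51 CPM in the EGFP libraries and at 5.83, 4.88 and 4.57 CPM in the OmoMYC libraries. Every OmoMYC library was below every EGFP library, and MITF fell by 0.85 on the log2 scale (SE 0.13, adjusted p = 3.91e-04, edgeR). TFEB, whose product is known as the main activator of lysosome genes, was at 8.42, 8.85 and 9.61 CPM with EGFP and at 8.97, 9.47 and 11.2 CPM with OmoMYC. Its groups overlapped, and the log2 fold change of 0.14 (SE 0.12) did not pass the test (adjusted p = 0.321, edgeR). TFE3 was not tested, with 2, 3 and 4 counts in the EGFP libraries and 9, 12 and 11 counts in the OmoMYC libraries. In the parental table, which was scaled separately, the same identifier had 832 to 1121 counts with DMSO. TFE3 is 1 of the symbols that stand under a second identifier in the OmoMYC table, and that second entry held 0 or 1 counts. Over the whole OmoMYC table, 162 of 207 genes with such repeated symbols (78.3%) lay more than 10-fold below their parental level, against 0.967% of the 12197 genes with 1 identifier, so that the low counts of TFE3 are shared by most genes listed in this way.

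Of the lysosomal membrane proteins, MCOLN1, the calcium channel of the lysosome, was at 21.3, 25.3 and 27.1 CPM with EGFP and at 30.1, 29.8 and 30.2 CPM with OmoMYC. The groups did not overlap and MCOLN1 rose by 0.29 (log2, SE 0.10, adjusted p = 0.0254, edgeR), a call that was lost when any library other than EGFP replicate 3 was left out (adjusted p up to 0.107). LAMP1, an abundant glycoprotein of the lysosomal membrane and the gene with 6 E-boxes, was at 120, 127 and 130 CPM with EGFP and at 143, 141 and 138 CPM with OmoMYC. The groups of LAMP1 did not overlap, but its log2 fold change of 0.17 (SE 0.07) missed the threshold (adjusted p = 0.0528, edgeR). LAMP1 was called with limma-voom, with the replicate block, with library size as the only scaling and with a filter of 10 counts in every library, whereas its value was -0.00 once a trend on GC content and length was removed. LAMP2, which is needed for fusion of autophagosomes and for autophagy by chaperones, had overlapping groups and a log2 fold change of -0.18 (SE 0.11, adjusted p = 0.195), which was called without EGFP replicate 3.

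Cathepsins are the proteases of the lysosome, and 4 of the 6 rose. CTSF, a cysteine protease on chromosome 11 (GRCh37 66330935 to 66336350), showed the largest change among the 34 genes tested. It was at 15.6, 20.5 and 19.2 CPM with EGFP and at 59.0, 58.3 and 61.7 CPM with OmoMYC. The lowest OmoMYC library was far above the highest EGFP library, and CTSF was 3.24-fold higher (log2 1.70, SE 0.10, adjusted p = 6.56e-07, edgeR). CTSD, the aspartic protease of the lysosome on chromosome 11 (GRCh37 1773982 to 1785803), was at 39.8, 47.5 and 48.1 CPM with EGFP and at 70.4, 66.5 and 77.0 CPM with OmoMYC. These groups did not overlap, with a log2 fold change of 0.66 (SE 0.09, adjusted p = 2.47e-04). CTSB, another cysteine protease, went from 71.6 ± 6.26 CPM (SD, n = 3) to 109 ± 0.976 CPM (SD, n = 3), a log2 fold change of 0.61 (edgeR adjusted p = 1.33e-04). CTSA, a carboxypeptidase that also protects the galactosidase GLB1 and the sialidase NEU1, went from a mean of 43.5 to 57.7 CPM, a log2 fold change of 0.41 (SE 0.11). CTSA stayed called when 1 library was left out, with an adjusted p of up to 0.049, and was at 0.27 without EGFP replicate 1. CTSL and the carboxypeptidase gene CTSZ both had log2 fold changes of 0.11 and were not called, and CTSZ was hardly expressed, with 8 to 24 counts per library.

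The glycosidases remove sugars from glycoproteins, glycolipids and glycogen. GAA, the acid alpha-glucosidase on chromosome 17 (GRCh37 78075332 to 78093680), was at 75.9, 95.8 and 107 CPM with EGFP and at 149, 148 and 167 CPM with OmoMYC. The groups were well apart, and GAA was 1.67-fold higher (log2 0.74, SE 0.11, adjusted p = 4.04e-04, edgeR). GLB1, the acid beta-galactosidase, rose by 0.28 (log2, SE 0.08, adjusted p = 0.0176, edgeR), and this call was lost without EGFP replicate 2 or without OmoMYC replicate 1 or 2 (adjusted p up to 0.109). The beta-glucuronidase gene GUSB (log2 fold change -0.13), the hexosaminidase gene HEXA (-0.05) and NAGLU (0.14), whose enzyme acts on heparan sulfate, were not called. GUSB was called lower when EGFP replicate 1 was left out (adjusted p = 0.0168, edgeR). GLA, the alpha-galactosidase gene, had no entry in the OmoMYC table. NEU1 was listed there under an identifier outside the primary chromosomes, with 2 to 6 counts in the EGFP libraries and 8 to 16 in the OmoMYC libraries, and was not tested.

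Among the genes of lipid handling, PSAP, which encodes the precursor of the saposins that help hydrolases act on sphingolipids, was at 474, 487 and 515 CPM with EGFP and at 635, 624 and 645 CPM with OmoMYC. Its groups were apart by more than the spread within either, and PSAP was 1.29-fold higher (log2 0.37, SE 0.06, adjusted p = 5.63e-04, edgeR). Per kilobase of the canonical transcript, PSAP had the highest level of the list, with a mean of 179 CPM per kb in the EGFP libraries, followed by LAMP1 at 46.4 and ATP6V0A1 at 40.0 CPM per kb. NPC1 and NPC2, whose proteins export cholesterol from the lysosome, had log2 fold changes of -0.14 (SE 0.09) and -0.30 (SE 0.23) with overlapping groups and were not called. NPC2 had only 22 to 40 counts per library.

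Of the V-ATPase subunits of the list, the V0 genes ATP6V0D1 and ATP6V0A1 rose. ATP6V0D1 on chromosome 16 (GRCh37 67471917 to 67515084) was at 36.7, 41.3 and 41.2 CPM with EGFP and at 70.6, 65.2 and 65.5 CPM with OmoMYC. The groups did not overlap, and ATP6V0D1 was 1.69-fold higher (log2 0.76, SE 0.08, adjusted p = 3.59e-05, edgeR). ATP6V0A1, the subunit that carries the proton path together with the ring, went from 164 ± 1.35 to 202 ± 2.17 CPM (SD, n = 3 each), or by 0.29 on the log2 scale (edgeR adjusted p = 0.00212). The V1 genes ATP6V1A, ATP6V1B2 and ATP6V1H had log2 fold changes of 0.01, 0.05 and 0.09, overlapping groups and no call. Other genes of both parts, given with the surrounding pathway, went either way, and the difference between V0 and V1 genes was not tested. ATP6AP1, the accessory subunit, had 0 to 2 counts under its main identifier. Its second identifier held 14 to 24 counts with EGFP and 33 to 62 with OmoMYC and was called higher (log2 1.18, SE 0.28, edgeR adjusted p = 0.00478), at a level of 0.664 and 1.51 CPM, against 71.9 CPM for the main identifier in parental cells with DMSO.

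Among the autophagy receptor and ATG8 genes, the changes were small. SQSTM1, the receptor that links ubiquitinated cargo to the autophagosome, was at 46.7, 53.5 and 61.3 CPM with EGFP and at 59.6, 59.2 and 64.8 CPM with OmoMYC. Its groups overlapped and it was not called (log2 0.19, SE 0.10, adjusted p = 0.138, edgeR), except with the replicate block and without EGFP replicate 3. With the trend on GC content and length removed, its value was -0.04. MAP1LC3B was at 62.5, 59.5 and 52.8 CPM with EGFP and at 71.7, 75.0 and 65.2 CPM with OmoMYC. The groups did not overlap and MAP1LC3B rose by 0.28 (log2, SE 0.09, adjusted p = 0.0208, edgeR). GABARAP, a second ATG8 gene, rose by 0.34 (SE 0.12, adjusted p = 0.0289, edgeR). The call of MAP1LC3B was lost without EGFP replicate 2 or 3 or OmoMYC replicate 1 or 2, with an adjusted p of up to 0.147, and that of GABARAP without any of the libraries other than EGFP replicate 3, with one of up to 0.123. The near copy MAP1LC3B2 had 3 to 12 counts per library, and GABARAPL1 had no entry in the OmoMYC table.

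The genes of autophagosome formation went both ways. ULK1, the kinase that starts autophagy, on chromosome 12 (GRCh37 132379167 to 132407695), was at 46.2, 52.0 and 60.5 CPM with EGFP and at 86.2, 82.5 and 98.8 CPM with OmoMYC. Every OmoMYC library was higher, and ULK1 rose 1.69-fold (log2 0.75, SE 0.11, adjusted p = 2.52e-04, edgeR). ATG9A, the lipid scramblase that supplies membrane, rose from a mean of 59.5 to 84.2 CPM (log2 0.50, SE 0.09, adjusted p = 8.54e-04, edgeR). ATG5, which is joined to ATG12 in the enzyme complex for ATG8 conjugation, was at 37.8, 31.2 and 30.3 CPM with EGFP and at 23.6, 23.6 and 22.8 CPM with OmoMYC. The OmoMYC libraries were all lower, and ATG5 fell by 0.51 on the log2 scale (SE 0.10, adjusted p = 0.00153, edgeR). WIPI1, which binds the lipid made by the BECN1 complex, was at 14.5, 14.0 and 14.0 CPM with EGFP and at 10.2, 10.6 and 9.80 CPM with OmoMYC. Its groups did not overlap either, and WIPI1 fell by 0.47 (log2, SE 0.09, adjusted p = 0.0014, edgeR). BECN1 (log2 fold change 0.09), ATG7 (0.08), the activating enzyme of ATG8 conjugation, and UVRAG (-0.12), a partner of BECN1, were not called.

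**Figure D2:**
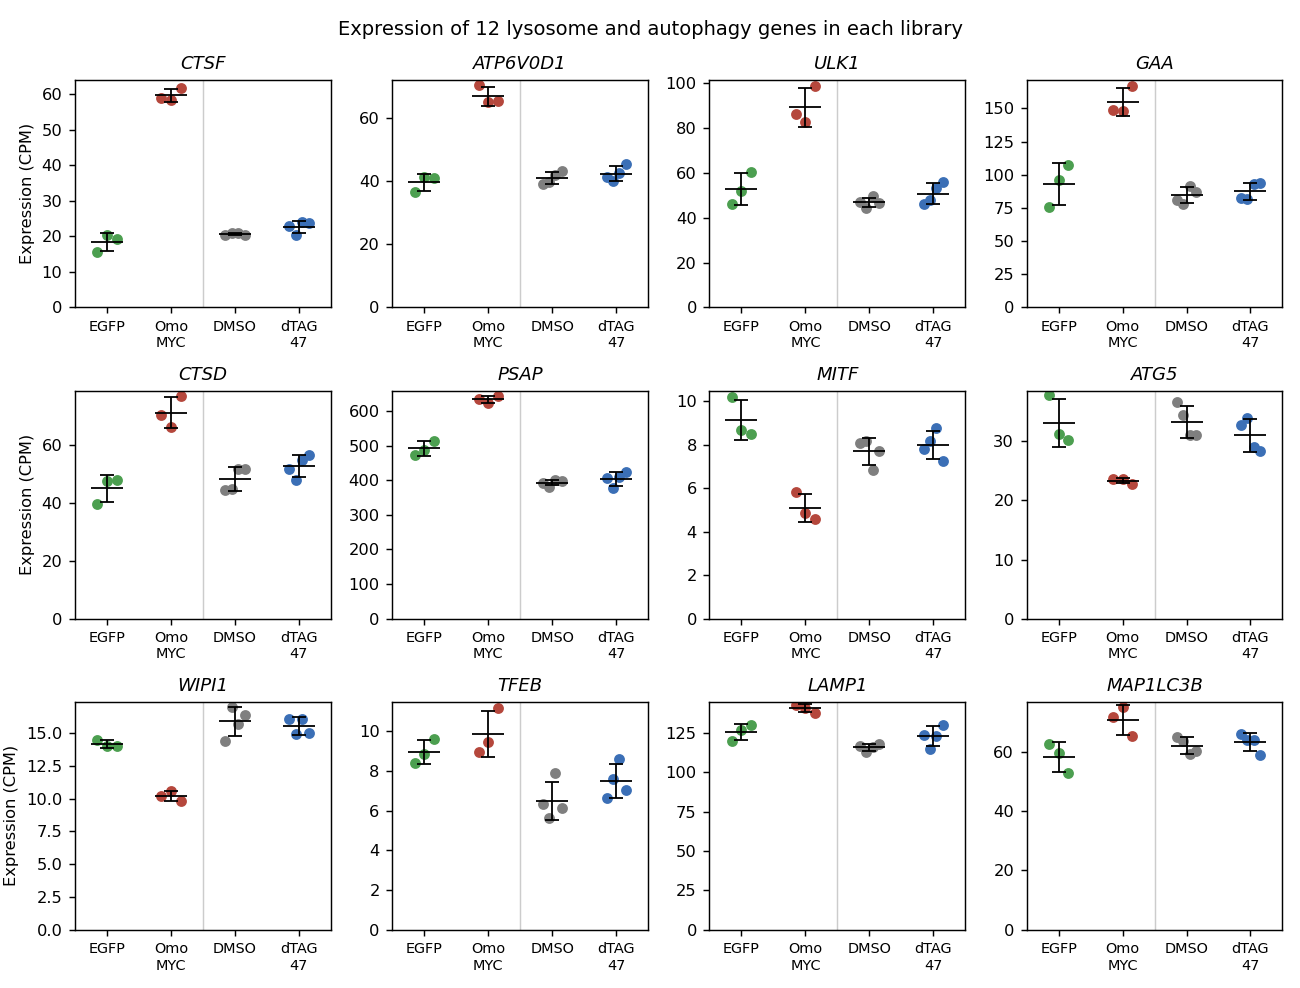
Expression in CPM (y axis, from 0) of 12 genes in each library of the 4 groups (x axis), with 3 EGFP, 3 OmoMYC, 4 DMSO and 4 dTAG47 libraries; points are libraries, horizontal lines the means and bars the SD. The 2 experiments were scaled separately. CTSF was at 58.3 to 61.7 CPM with OmoMYC and at 15.6 to 23.9 CPM in the 11 other libraries.

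Some of these exons are shared with other genes, and whether reads were counted by strand is not given in the sources used here. In the GENCODE annotation on GRCh37, 62.1% of the bases of the canonical CTSD transcript, 68.2% of GABARAP and 48.6% of ATG9A also belong to transcripts annotated as another gene. For SQSTM1, 55.7% is covered by MRNIP on the opposite strand, for BECN1 37.7% by CNTD1, for ATG7 29.95% by VGLL4 and for WIPI1 28.3% by ARSG. CTSA (24.1%) and HEXA (21.65%) also share bases with other genes, and further genes of the list do so to a smaller extent. The values of these genes are uncertain to that extent. None of the bases of CTSF, ATP6V0D1, ULK1, GAA, PSAP, MITF or ATG5 are shared in this way.

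In both experiments the changes ran with the GC content of the transcripts. Over the 34 genes tested with OmoMYC, Spearman's rho between GC content and log2 fold change was 0.70, and over 13499 tested genes with a known GC content it was 0.49. With dTAG47, where no gene of the list was called, rho was 0.57 over the 38 genes tested and 0.47 over 14201 genes. The genes share libraries and are not independent, so this is a description. GAA, ULK1 and CTSD have the highest GC content among the called genes, and ATG5 and MITF the lowest. When a trend of counts on GC content and transcript length was removed from each library, rho with OmoMYC became 0.10 over the list and -0.03 over all genes, and with dTAG47 0.20 and -0.00, again with 0 genes of the list called. The trend was fitted over the tested genes themselves, so that values near 0 over all genes follow from its removal and are not a result. With this offset 25 of the 34 genes were called with OmoMYC, 19 higher and 6 lower, of which 16 were called in the same direction without it, against 58.9% of all genes (31.4% higher and 27.6% lower). CTSF was still the largest rise (1.44), followed by ATP6V0D1 (0.59), MAP1LC3B (0.58) and CTSB (0.50). GAA moved to 0.33, ULK1 to 0.30, CTSD to 0.35 and ATG9A to 0.18. CTSA moved from 0.41 to 0.25, PSAP from 0.37 to 0.23 and ATP6V0A1 from 0.29 to 0.19. These 7 genes were called in both fits, with values reduced by more than 1.5 times. ATG5 moved from -0.51 to -0.14 (adjusted p = 0.0431, edgeR), and MITF from -0.85 to -0.62. The call of MCOLN1 was lost (0.02), LAMP1 moved to -0.00 (adjusted p = 0.949), and TFEB (-0.20), SQSTM1 (-0.04), ATG7 (-0.03) and CTSZ (-0.06) changed sign without a call. LAMP2 (0.16) and NAGLU (-0.21) were called with the opposite sign. The V1 genes ATP6V1A, ATP6V1B2 and ATP6V1H as well as BECN1, CTSL, GUSB and NPC1 were called with the offset and not in the main fit. The part of GC content in these changes was not tested beyond this offset.

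**Figure D3:**
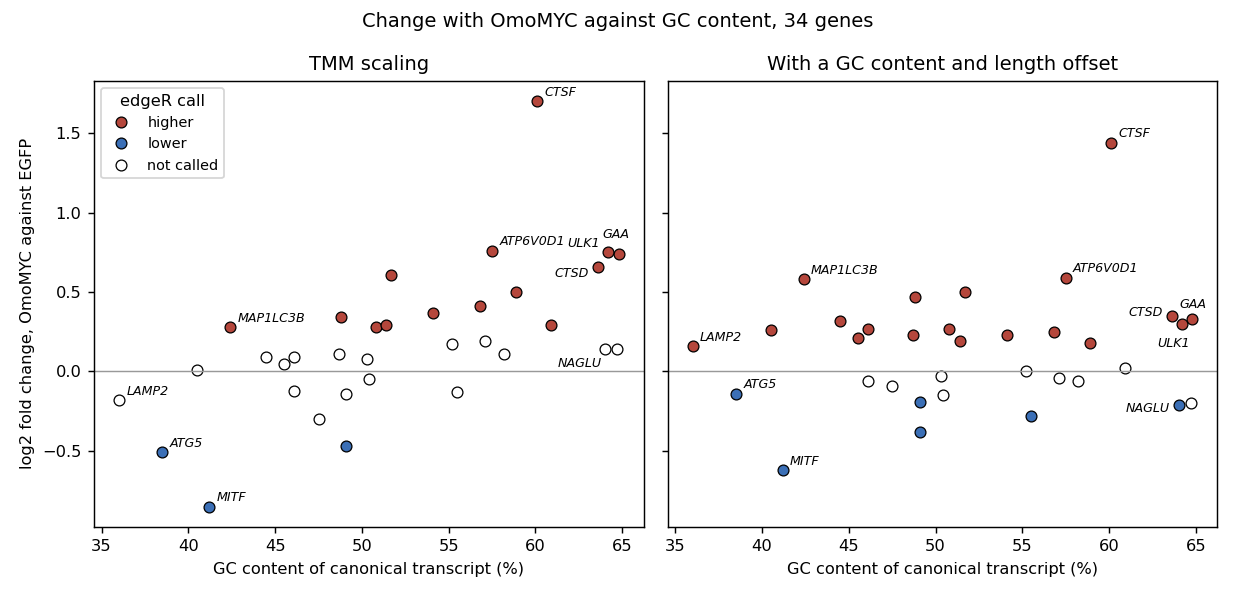
Log2 fold change of OmoMYC against EGFP (y axis) by GC content of the canonical transcript in percent (x axis) for the 34 genes tested, with TMM scaling (left) and after removal of a trend on GC content and length (right). Red, blue and open points are genes called higher, lower and not called. Spearman's rho was 0.70 on the left and 0.10 on the right, and CTSF was the highest point in both. The trend was fitted over all tested genes, these included, so that a lower rho on the right follows in part from its removal.

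Of the 12 genes called higher that had a promoter in the table, 6 held CACGTG, and these were GAA, MCOLN1, ATP6V0D1, CTSA, CTSD and CTSF, whose sequences are given above. Of the 10 genes that were tested and not called, 1 held it, LAMP1. Of the 3 genes called lower, 0 held it. These counts are small and were not tested. Among the 5 largest rises, ULK1 held no CACGTG in its window.

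The surrounding pathway was described by 141 further genes in 8 groups, of which 133 were tested. Of these, 45 rose and 21 fell, and the called share of 49.6% was again near the background of 53.0%. By direction, 33.8% were called higher against 27.3% of all tested genes, and 15.8% lower against 25.7%. The counts of each group below stand against these same shares of all tested genes. Lysosomal hydrolases outside the list rose in 15 of 31 cases and fell in 4. FUCA1, the lysosomal fucosidase, had a mean of 1.01 ± 0.0549 CPM in the EGFP libraries and of 12.8 ± 1.04 CPM in the OmoMYC libraries (SD, n = 3 each), a 12.5-fold rise (adjusted p = 1.79e-08, edgeR). PPT1, which removes fatty acids from proteins, fell by 0.52 (log2, SE 0.08). Membrane proteins rose in 3 of 17 cases and fell in 5. SLC17A5, the exporter of sialic acid, rose by 1.51 (SE 0.13), and GPR137B fell by 0.64 (SE 0.11). Among 13 further V-ATPase subunits, the V0 genes ATP6V0E2 (log2 0.95, SE 0.14) and ATP6V0B (0.49, SE 0.07) and the V1 gene ATP6V1F (0.21, SE 0.07) rose. The V0 gene ATP6V0A2 (log2 -0.39, SE 0.08) and the V1 genes ATP6V1C2 (-0.62, SE 0.20) and ATP6V1E2 (-0.27, SE 0.09) fell, and the V0 genes ATP6V0C (-0.25) and ATP6V0E1 (-0.20) were not called. ATP6V0C had only 33 to 54 counts per library, so that its value is poorly measured. Of 8 genes of mannose 6-phosphate sorting, which brings hydrolases to the lysosome, 2 rose and 0 fell, with GNPTG at 0.52 (SE 0.12).

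Of 21 genes of mTORC1, the kinase complex that restrains TFEB and ULK1, and of its regulators at the lysosome, 5 rose and 2 fell. TSC2, an inhibitor of this pathway, rose by 0.53 (log2, SE 0.10), and RRAGD, a GTPase that recruits mTORC1, fell by 0.52 (log2, SE 0.09). Of 23 other core autophagy genes 9 rose and 5 fell, from ATG2A at 0.68 (SE 0.10), a lipid transfer protein, to the protease gene ATG4C at -0.84 (SE 0.13). Of 10 other autophagy receptors 3 rose and 2 fell. OPTN, a receptor for ubiquitinated cargo, went from 6.55 to 16.3 CPM (log2 1.31, SE 0.09), and BNIP3, a receptor on mitochondria, went from 39.8 to 27.3 CPM (log2 -0.54, SE 0.07). Of 10 genes that serve fusion of autophagosomes with lysosomes 5 rose and 0 fell. VPS16, a subunit of the HOPS tethering complex, was 3.35-fold higher with OmoMYC, at 65.3 against 19.5 CPM (log2 1.74, SE 0.09, adjusted p = 1.42e-07, edgeR).

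**Figure D4:**
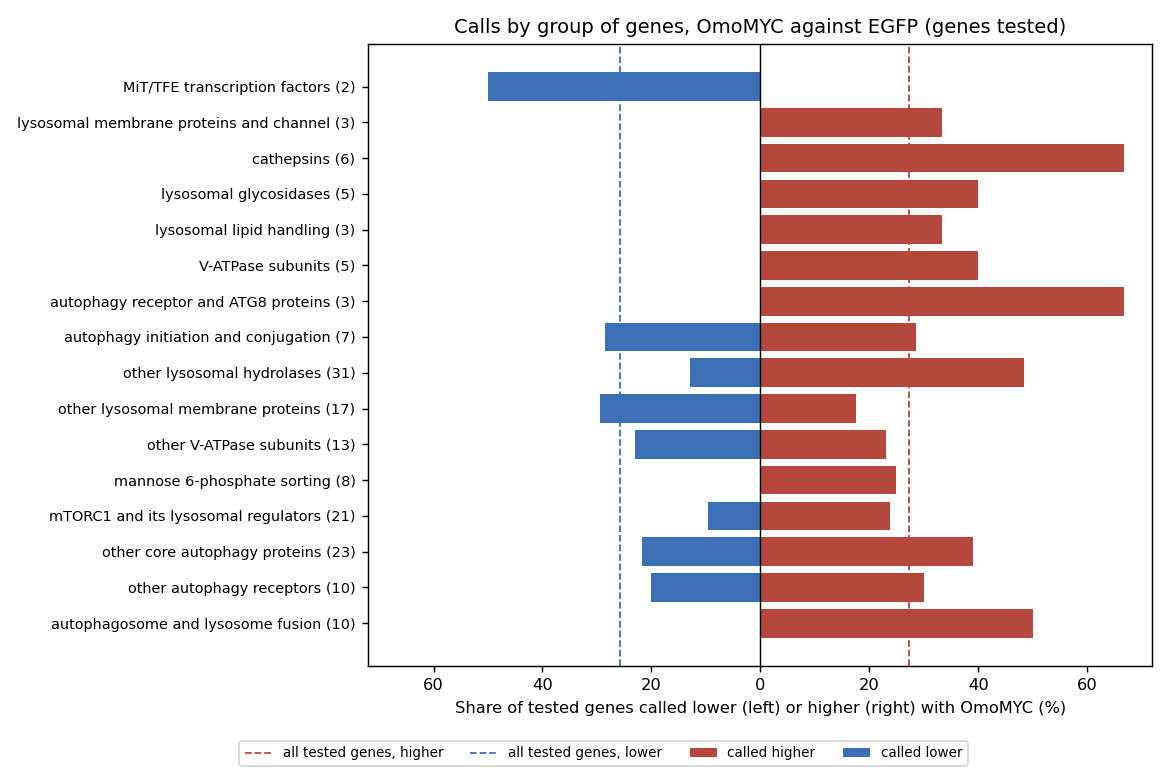
Share of tested genes called higher (red, to the right) or lower (blue, to the left) with OmoMYC, in percent (x axis), for the 8 role groups of the list and the 8 groups of further pathway genes (y axis, number of genes tested in parentheses). Dashed lines mark all tested genes, 27.3% called higher and 25.7% called lower. Groups hold 2 to 31 genes, so that 1 gene moves the smaller bars far.

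Treatment of parental cells with dTAG47 was compared with DMSO to ask whether the compound by itself affects these genes. No gene of the list was called. By edgeR's quasi-likelihood test, 0 of 38 tested genes passed an FDR of 0.05, where 0.159% of all 14470 tested genes were called, and 0 passed with DESeq2, which called 0.453% of all genes. At an unadjusted p below 0.05 there were 2 genes of the list and 1053 of all genes. The log2 fold changes lay between -0.11 and 0.58, with a median of 0.05 against -0.00 over all genes. In the list 26 were above and 12 below 0, against 7121 and 7349 over all genes, a difference that was not tested. The summed expression of the 38 genes was 1942.1, 1933.3, 1989.7 and 1987.1 CPM with DMSO and 2008.3, 1926.8, 2021.2 and 2050.3 CPM with dTAG47, and these groups overlapped.

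The genes with the smallest unadjusted p were GABARAP, CTSF and CTSL. GABARAP was at 8.69, 10.2, 9.90 and 10.6 CPM with DMSO and at 11.8, 9.75, 12.2 and 11.8 CPM with dTAG47. The second dTAG47 library was within the DMSO range and the other 3 were above it, and the log2 fold change was 0.21 (SE 0.08, adjusted p = 0.673, edgeR). CTSF was at 20.4, 20.9, 20.8 and 20.4 CPM with DMSO and at 22.8, 20.3, 23.9 and 23.8 CPM with dTAG47. Here too the second dTAG47 library lay at the DMSO level, and the log2 fold change was 0.14 (SE 0.06, adjusted p = 0.673, edgeR). CTSL had a log2 fold change of 0.12 (SE 0.06), with 14.5 to 15.9 CPM in the DMSO libraries and 15.9 to 17.0 CPM in the dTAG47 libraries. ATP6V0A1 was the only gene of the list whose groups did not overlap (2.63% of the list, against 3.34% of all tested genes). It was at 203, 204, 210 and 214 CPM with DMSO and at 198, 199, 202 and 200 CPM with dTAG47, and its log2 fold change of -0.06 (SE 0.04) was not called.

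The transcription factors were measured more fully in this experiment. TFE3 was at 18.3, 19.4, 20.3 and 21.7 CPM with DMSO and at 22.3, 19.5, 22.4 and 22.6 CPM with dTAG47 (log2 0.12, SE 0.07). TFEB was at 6.35, 5.63, 7.88 and 6.13 CPM with DMSO and at 6.63, 7.61, 8.62 and 7.07 CPM with dTAG47 (log2 0.21, SE 0.10). MITF was at 8.08, 8.20, 6.83 and 7.70 CPM with DMSO and at 7.81, 8.17, 8.80 and 7.26 CPM with dTAG47 (log2 0.05, SE 0.08). All 3 had overlapping groups and adjusted p-values of 0.673 or more by edgeR.

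Among the other genes named above, LAMP1 was at 113 to 118 CPM with DMSO and at 115 to 130 CPM with dTAG47 (log2 0.08, SE 0.04). SQSTM1 was at 45.0 to 49.6 CPM and at 45.7 to 51.2 CPM in the same order (log2 0.05, SE 0.05). MAP1LC3B was at 59.2 to 65.1 CPM and at 59.0 to 66.1 CPM (log2 0.03, SE 0.05). These overlapping ranges were typical of the list. The 6 cathepsin genes had log2 fold changes of 0.08 to 0.16, the 7 glycosidase genes of -0.10 to 0.06, and the 6 V-ATPase genes of -0.10 to 0.08. The 7 genes of autophagy initiation and conjugation lay between -0.11 (ATG5) and 0.12 (ULK1). GLA and NEU1, which could not be followed with OmoMYC, were at 19.0 and 22.0 CPM with DMSO and had log2 fold changes of -0.01 (SE 0.06) and -0.10 (SE 0.06). The largest value, 0.58 for NPC2 (SE 0.39), rested on 3 to 19 counts per library. GABARAPL1 was listed at 0 in all 8 libraries, and whether this reflects its expression was not tested.

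A few genes were called in other fits of this experiment. CTSD, at 44.6, 44.8, 51.9 and 51.8 CPM with DMSO and 51.9, 48.0, 54.8 and 56.5 CPM with dTAG47, was called higher (log2 0.13, adjusted p = 0.0364, edgeR) when the replicate number was taken as a block, and with a factor for replicates 1 and 2 against 3 and 4 (adjusted p = 0.0288). It was at 0.08 and not called when the block was combined with the GC content and length offset. The fits with the block and with the factor called 4.62% and 5.49% of all genes. Within replicates 3 and 4 alone, CTSF (log2 0.21, adjusted p = 0.0209, edgeR) and ULK1 (0.19, adjusted p = 0.0035) were called, where 6.17% of all genes were. This fit had 2 libraries a group and was added after the data were seen. In the matching fit of replicates 1 and 2 alone, neither gene was called. Of the 141 further pathway genes, 135 were tested and 0 called. An unadjusted p below 0.05 was found for 8 of these 135, against 1053 of all 14470 genes. BNIP3 had the smallest, from 48.1 ± 4.86 CPM in the DMSO libraries to 64.5 ± 9.84 CPM in the dTAG47 libraries (SD, n = 4 each), or 0.43 on the log2 scale (SE 0.09, adjusted p = 0.107, edgeR). Without dTAG47 replicate 2 it was called at 0.32 (adjusted p = 0.0409, edgeR), as were 0.579% of all genes, and DESeq2 called it at 0.42 (adjusted p = 0.00277). BNIP3 was also called with the replicate block (0.42, edgeR adjusted p = 5.3e-06), with the block and the offset (0.45, 1.3e-05) and within replicates 3 and 4 alone (0.46, 1.67e-20). In the last of these fits, 2 libraries a group give a poor measure of the spread, and its p-value carries little weight. With the offset alone BNIP3 was not called, and BNIP3L was (0.25, adjusted p = 0.0487, edgeR). BNIP3L was also called with the block (0.17), with the block and the offset (0.24) and within replicates 3 and 4 (0.20). OSTM1 was called lower and MLST8 higher with the block (-0.26 and 0.14) and with the factor (-0.25 and 0.14). RB1CC1 was called with the factor, and OSTM1, ATG12 and FNIP1 within replicates 3 and 4, all lower.

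Set side by side, CTSF had a log2 fold change of 1.70 with OmoMYC and 0.14 with dTAG47, ATP6V0D1 of 0.76 and 0.05, ULK1 of 0.75 and 0.12, and GAA of 0.74 and 0.05. For MITF the values were -0.85 and 0.05, for ATG5 -0.51 and -0.11, and for WIPI1 -0.47 and -0.03. The experiments differ in line, serum, treatment time and depth, and the difference between them was not tested.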

How the data were processed

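Total RNA was depleted of rRNA, and the authors used Cutadapt for trimming, STAR for alignment to hg19 and FeatureCounts for quantification. The deposited files hold raw counts per gene. The annotation, strandedness and handling of reads shared by genes are not given in the sources used here. All 14 columns were used and 0 were left out. In R 4.3.3, each experiment was filtered with filterByExpr, scaled by TMM and tested by the robust quasi-likelihood test of edgeR 4.0.16, with Benjamini-Hochberg adjustment over every gene tested (FDR 0.05). Alternatives included DESeq2 1.42.0, the tool of the study's methods, and voom of limma 3.58.1. The scripts were tested on simulated data. GC content and length of canonical transcripts came from GENCODE annotation on GRCh37. Promoters were matched by symbol in RefSeq.

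The genes, lists and alternatives were chosen with earlier results of these data known. Values per library are given for 6 fixed genes, for the 5 largest called rises and falls with groups apart, and, with dTAG47, for the 3 smallest unadjusted p. Of each further pathway group, the called genes with the largest rise and fall (mean of at least 1 CPM) are named. Other genes were named after their values were seen.

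Replicate numbers were not taken as pairs. The deviations of libraries with the same number correlated at 0.076, -0.0697 and 0.293 in the OmoMYC experiment and at 0.0093 to 0.159 in the parental one. In the parental experiment, DMSO and dTAG47 libraries both from replicates 1 and 2, or both from 3 and 4, correlated positively (0.0093 to 0.247). Those split between replicates 1 and 2 and replicates 3 and 4 correlated negatively (-0.226 to -0.0191). The main fit did not include this split. The fit with a factor for it called 5.49% of all genes, against 0.159% in the main fit.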

Additional observations from a re-analysis of the deposited data

Results flagged for a closer look

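Among 76 groups of 4 libraries (38 genes in the DMSO and in the dTAG47 libraries), 2 held a library that stood apart from the other 3 by Dixon's criterion, and chance flags about 1 in 20 groups. Both were in dTAG47 replicate 2. GABARAP was at 9.75 CPM there and at 11.8 to 12.2 CPM in the other dTAG47 libraries, a gap of 0.837 of the range of the group. TFE3 was at 19.5 CPM there and at 22.3 to 22.6 CPM in the others, a gap of 0.903 of the range. The groups of 3 libraries in the OmoMYC experiment were not examined in this way.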

How the results depend on the processing

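With OmoMYC, between 17 and 25 genes of the list were called under DESeq2, limma-voom, other scalings, other filters, the replicate block and the GC content and length offset, against 17 in the main fit. Leaving out 1 library in turn gave 13 to 18 called genes, 10 to 14 higher and 3 to 4 lower, with a median log2 fold change of 0.10 to 0.18, and 54 to 83 called pathway genes. The share of all genes called also differed between fits. It was 53.0% in the main fit, 46.3% with DESeq2, 58.7% with the replicate block and 58.9% with the offset. For the fits without 1 library this share is not given, so their counts have no background beside them. LAMP2 turned to 0.16 and NAGLU to -0.21 with the GC content and length offset, with and without the replicate block. Replicate numbers are shared between groups without a stated pairing. With the replicate block, 19 genes of the list and 80 pathway genes were called with OmoMYC. With dTAG47, the block called 1 gene of the list and 4 pathway genes, against 0 and 0, the factor for replicates 1 and 2 against 3 and 4 called 1 and 3, and replicates 3 and 4 alone, a fit added after the data were seen, called 2 and 5. Over all genes these fits called 4.62%, 5.49% and 6.17% in the same order, against 0.159% in the main fit. The number of called pathway genes with dTAG47 was 1 with DESeq2 (BNIP3), 1 with the offset (BNIP3L) and 2 with the block and the offset together (both). Leaving out 1 library in turn gave 0 called genes of the list each time, a median of 0.03 to 0.07, and 0 to 1 called pathway genes, the 1 being BNIP3 without dTAG47 replicate 2. The cause of these differences was not tested. Low counts limited CTSZ, NPC2, TFE3, NEU1 and ATP6AP1 in the OmoMYC table, and CTSZ and NPC2 in the parental table.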
